A study of Mus musculus with 18 samples.

Results

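Guanylate-binding proteins and immunity-related GTPases are the large GTPases that interferon gamma switches on in mouse cells. Their transcripts were followed here in the livers of 18 mice, together with Irf1, a transcription factor of the same response. The genes are Gbp2, Gbp3, Gbp6, Gbp7, Irgm1, Irgm2, Igtp, Iigp1, Ifi47 and Irf1, taken by name. Those are 10 of the 55385 genes in the table of counts, and all 10 passed the filter on low counts, which left 15208 genes. Polyadenylated RNA was sequenced from 6 Dp16-2xIFNRs, 6 Dp16 and 6 wild-type C57BL/6J mice, with 3 females and 3 males in each group. Dp16 is a model of trisomy 21 in which a segment of mouse chromosome 16 is present in an extra copy. That segment includes a cluster of interferon receptor genes, among them Ifngr2, which encodes a chain of the interferon gamma receptor. In Dp16-2xIFNRs mice, as the name says, the receptor cluster is back at normal dosage while the segment is otherwise in extra copy; the labels give these genotype names without further alleles. The mice were 17.7 to 18.0 weeks old in Dp16-2xIFNRs, 17.1 to 18.0 in Dp16 and 17.1 to 18.0 in wild-type. The labels list no treatment or infection, so the values are resting levels in whole liver.

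Interferon gamma, released mainly by T cells and natural killer cells, binds a receptor made of Ifngr1 and Ifngr2 chains, and the kinases Jak1 and Jak2 pass the signal on. Early target genes with GAS elements, Irf1 among them, are induced first, and Irf1 together with other factors acts on ISRE elements in the promoters of a second wave of genes. The guanylate-binding proteins and immunity-related GTPases belong to that wave: they gather on the vacuoles of intracellular parasites and bacteria and help to disrupt them, and the Irgm proteins keep the other immunity-related GTPases inactive on the cell's own membranes. In liver, hepatocytes, Kupffer cells (the resident macrophages) and endothelial cells all respond to interferon gamma.

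Total counts per library ran from 38236222 to 59923315. Values per library are given as CPM, which are counts scaled to library size with TMM factors, and these factors ran from 0.803 in Dp16 library 4 to 1.34 in Dp16 library 5, the 2 libraries that stood apart from the rest. The labels name separate mice by title only, so p-values measure the spread between these libraries. The sample descriptions also hold a number whose meaning is not stated, with 12 such numbers over the 18 libraries. Libraries that share a number are of the same sex and of different genotypes. The main tests took all libraries as independent, also between the sexes, and a random block for this number was an alternative. The hepatocyte marker genes of the list used here, Alb among them, summed to 87810 to 139800 CPM in Dp16-2xIFNRs, 84490 to 126000 CPM in Dp16 and 90180 to 129900 CPM in wild-type libraries.

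The genes lie in a few clusters of the GRCm38 genome, in the coordinates of the GENCODE M21 annotation. Gbp7 (chr3:142530342-142550149), Gbp3 (chr3:142560026-142573209) and Gbp2 (chr3:142620602-142638008) follow each other on the forward strand, while Gbp6 lies on the reverse strand at chr5:105270702-105293698. Irgm1 (chr11:48861968-48871683, reverse strand), Ifi47 (chr11:49076587-49096974), Irf1 (chr11:53770014-53778374), Igtp (chr11:58199556-58207591) and Irgm2 (chr11:58199618-58222782) share chromosome 11. Several of them share exon bases with a neighbour on the same strand. Igtp and Irgm2 share 162 bases, which is 8.01% of the exon bases of Igtp and 4.39% of those of Irgm2. Gbp6 shares 29.0% of its exon bases with Gm43302, Gbp7 shares 11.3% with Gm43802 and Ifi47 shares 4.49% with Olfr56. On the opposite strand Irf1 shares 135 exon bases with Gm17334, Ifi47 shares 106 with Gm12188 and Gbp2 shares 24 with Mir6381. The deposited counts are named for another GENCODE release, in which these overlaps were not checked. The library kit keeps the strand. The strand setting of the counting and how reads from shared bases, or reads that fit several of these similar paralogs, were counted are not stated in the labels or notes used here, so the split between such neighbours is uncertain.

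The promoters are shown because the genes respond to one cytokine and because the letters of the ISRE and GAS elements can be read in them. RefSeq windows of 300 bases (250 before and 50 after the start, GRCm38.p6) were found for 8 of the 10 genes. Both strands were searched for the core of the ISRE, which is GAAA, any 2 bases and GAAA, and for the GAS, TTCNNNGAA. The ISRE core was found in 3.44% and the GAS in 8.30% of all 32851 windows of that length. Among the 8 genes, 6 held the ISRE core (Gbp2, Gbp3, Gbp7, Irgm1, Irgm2 and Igtp) and 4 held the GAS (Gbp7, Irgm2, Igtp and Irf1). Of 10 other genes of the family with a window, 7 held the ISRE core and 5 the GAS. The lines below run 5′ to 3′ upstream of the start, with both elements in capitals. They end at base -1, except in Gbp2 (base -32) and Irgm1 (bases -37 to -8), which were cut to at most 30 annotated exon bases. The lines of Gbp2, Gbp3 and Irgm1 still hold 30, 18 and 30 exon bases of their own gene. In Irgm1 that is the whole line, and the other lines hold none.
Gbp2, chr3:142620543-142620631, forward strand: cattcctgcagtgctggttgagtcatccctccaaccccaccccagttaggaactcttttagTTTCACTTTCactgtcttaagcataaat
Gbp3, chr3:142559924-142560043, forward strand: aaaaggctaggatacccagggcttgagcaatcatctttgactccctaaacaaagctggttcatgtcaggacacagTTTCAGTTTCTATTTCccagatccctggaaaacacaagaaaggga
Gbp7, chr3:142530216-142530335, forward strand: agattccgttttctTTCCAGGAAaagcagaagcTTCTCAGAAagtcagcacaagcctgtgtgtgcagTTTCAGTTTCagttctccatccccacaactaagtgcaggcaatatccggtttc
Irgm1, chr11:48871428-48871457, reverse strand: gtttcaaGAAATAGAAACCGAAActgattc
Irgm2, chr11:58214857-58214976, forward strand: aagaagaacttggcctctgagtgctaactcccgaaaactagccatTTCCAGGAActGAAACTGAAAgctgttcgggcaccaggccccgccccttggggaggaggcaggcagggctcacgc
Igtp, chr11:58199436-58199555, forward strand: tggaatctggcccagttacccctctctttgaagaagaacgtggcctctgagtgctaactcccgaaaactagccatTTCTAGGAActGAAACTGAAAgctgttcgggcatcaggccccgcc
Irf1, chr11:53769894-53770013, forward strand: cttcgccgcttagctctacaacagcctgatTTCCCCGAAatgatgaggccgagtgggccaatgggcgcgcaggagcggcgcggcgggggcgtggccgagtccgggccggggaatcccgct
Ifi47, chr11:49076467-49076586, forward strand: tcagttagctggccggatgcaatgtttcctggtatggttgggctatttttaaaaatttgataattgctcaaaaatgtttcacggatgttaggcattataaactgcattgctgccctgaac

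In Igtp and Irgm2 the GAS and the ISRE core stand side by side and in the same order. The letters around the elements are nearly the same in both lines, so these are not independent cases. Gbp3 and Irgm1 each held 2 overlapping ISRE cores. Neither motif was found in the window of Ifi47, which says only that these letters are not in that window. All matches in the first window of each gene lay between bases -106 and -15.

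**Figure D1:**
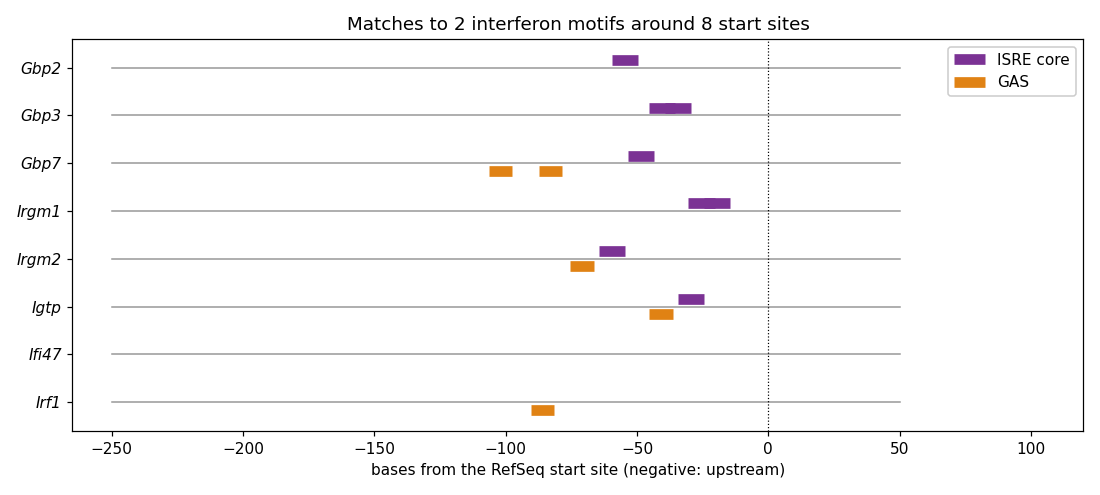
Positions of the ISRE core and the GAS in the RefSeq windows of 8 genes; the horizontal axis is the distance in bases from the start site and each grey line is 1 window of 300 bases. All matches lie between bases -106 and -15, and the line of Ifi47 holds none.

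Levels between genes were compared per length, in RPKM (reads scaled to gene length and library size). Iigp1, an effector GTPase that coats parasite vacuoles and is encoded at chr18:60376027-60392634 on the forward strand, was the most abundant in each group, with 57.9 ± 10.2 RPKM in Dp16-2xIFNRs, 70.1 ± 16.8 RPKM in Dp16 and 76.1 ± 15.9 RPKM in wild-type livers (SD, n = 6 each). Its lowest library exceeded the highest library of the next gene in every group. Irgm1, Igtp, Ifi47 and Irgm2 followed, with wild-type means of 19.1, 17.4, 13.0 and 11.6 RPKM, and the ranges of neighbours in this order overlapped. Irf1 came next with 5.32 RPKM in wild-type, below Irgm2 in every library. The guanylate-binding proteins were lowest: wild-type livers held 3.49 RPKM of Gbp3, 3.35 of Gbp2, 1.98 of Gbp7 and 1.37 of Gbp6, and the ranges of neighbours overlapped here too. In Dp16-2xIFNRs livers Ifi47 took the second place with 18.8 ± 9.45 RPKM, a mean whose SD covers the levels of Irgm1 (15.4 ± 1.95 RPKM) and Igtp (13.2 ± 2.52 RPKM).

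Set against wild-type, Dp16-2xIFNRs livers address how the resting GTPase transcripts stand when the segment is present in 3 copies and the receptor cluster is not. None of the 10 genes passed an adjusted p of 0.05 over all genes tested (edgeR quasi-likelihood test with group and sex as terms, Benjamini-Hochberg), where 0.0986% of genes passed. On the log2 scale 8 of the 10 fold changes were negative, with a median of -0.268 beside -0.0247 over all genes. At an unadjusted p of 0.05, 2 of the 10 were lower and 0 higher, beside 5.23% and 3.43% of all genes. No gene of the 10 had groups that did not overlap, and 0.855% of all genes did. Fitted in each sex alone, the median of the 10 was -0.463 in females and 0.0931 in males. In whole tissue, fewer cells of a type and less RNA per cell cannot be told apart.

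Gbp7, a guanylate-binding protein that in mouse macrophages supports the oxidative defence against bacteria, differed most. It measured 3.67, 5.43 and 8.37 CPM in Dp16-2xIFNRs livers, against 3.62, 9.67 and 22.0 CPM in wild-type livers (lowest, median and highest library). The 2 ranges started at the same level, but all 6 Dp16-2xIFNRs libraries lay below the wild-type mean. The log2 fold change was -0.81 (SE 0.288, 95% interval -1.41 to -0.207), with an edgeR p of 0.0112 before and 0.445 after adjustment. Gbp3 and Gbp6, whose individual roles are less defined, stood at -0.44 (95% interval -1.06 to 0.186) and -0.26 (-0.866 to 0.348). Gbp2, which is recruited to the vacuole of Toxoplasma, stood at 0.35 (-0.283 to 0.976), and 4 of its 6 Dp16-2xIFNRs libraries (7.95 to 15.2 CPM) exceeded the wild-type mean of 8.35 CPM.

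Among the immunity-related GTPases, Irgm2, a regulator of the family, measured 29.4, 30.8 and 45.3 CPM in Dp16-2xIFNRs livers, against 35.9, 40.8 and 54.5 CPM in wild-type livers (lowest, median and highest library). Only Dp16-2xIFNRs library 4 exceeded the wild-type mean. The log2 fold change of Irgm2 was -0.35 (SE 0.152, 95% interval -0.667 to -0.0321), with an edgeR p of 0.0326 before and 0.55 after adjustment. Iigp1 measured 144, 187 and 241 CPM in Dp16-2xIFNRs livers, against 204, 212 and 293 CPM in wild-type livers. Its log2 fold change was -0.32 (95% interval -0.644 to 0.00201), and 1 of the 6 Dp16-2xIFNRs libraries exceeded the wild-type mean. Igtp, also known as Irgm3, and Irgm1, regulators of the family that protect the cell's own membranes, stood at -0.25 (-0.716 to 0.223) and -0.22 (-0.588 to 0.147), each with 0 of 6 libraries above the wild-type mean CPM. Ifi47, an effector GTPase, stood at 0.42 (-0.315 to 1.16). Irf1, the transcription factor, measured 9.95, 13.5 and 18.5 CPM in Dp16-2xIFNRs livers, against 8.66, 16.1 and 26.9 CPM in wild-type livers, and its log2 fold change of -0.28 (-0.706 to 0.149) lay within the spread of the libraries.

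Dp16 livers, in which the receptor cluster has its extra copy too, were set against wild-type next. None of the 10 genes passed, where 0.0395% of all genes passed, and none had an unadjusted edgeR p under 0.05, beside 4.87% of all genes. Fold changes on the log2 scale ran from -0.20 (Gbp6) to 0.42 (Gbp2), with 8 of 10 below 0 and a median of -0.0942 beside 0.00997 over all genes. The 95% intervals of all 10 included 0. Their outermost bounds were -0.804 (Gbp6) and 1.05 (Gbp2), while the interval of Irgm2 ran from -0.389 to 0.246. For each gene, differences within its own interval cannot be told apart from none at this depth and number of mice. Iigp1 and Irf1 had 1 of 6 Dp16 libraries above the wild-type mean, and Gbp2 had 5 of 6. Gbp7 measured 2.37, 10.1 and 19.2 CPM in Dp16 livers, nearly the range of wild-type, with a log2 fold change of -0.08 (-0.676 to 0.515).

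The direct comparison of Dp16-2xIFNRs with Dp16 livers shares its samples with the other 2 comparisons and sets mice with normal dosage of the receptor cluster against mice with its extra copy. No gene of the whole table passed in edgeR (0 of 15208, with 9.32% at an unadjusted p of 0.05, and 7 by DESeq2). Fold changes on the log2 scale were negative for 9 of the 10 genes, with a median of -0.13 beside -0.0222 over all genes. Gbp7 stood at -0.73 (SE 0.288, 95% interval -1.33 to -0.127), with an edgeR p of 0.0202 before and 0.532 after adjustment. Its highest Dp16-2xIFNRs library (8.37 CPM) lay below 4 of the 6 Dp16 libraries. Irgm2 stood at -0.28 (-0.596 to 0.0393), Gbp3 at -0.26 (-0.877 to 0.352) and Ifi47 at 0.36 (-0.364 to 1.09), all with intervals that included 0.

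**Figure D2:**
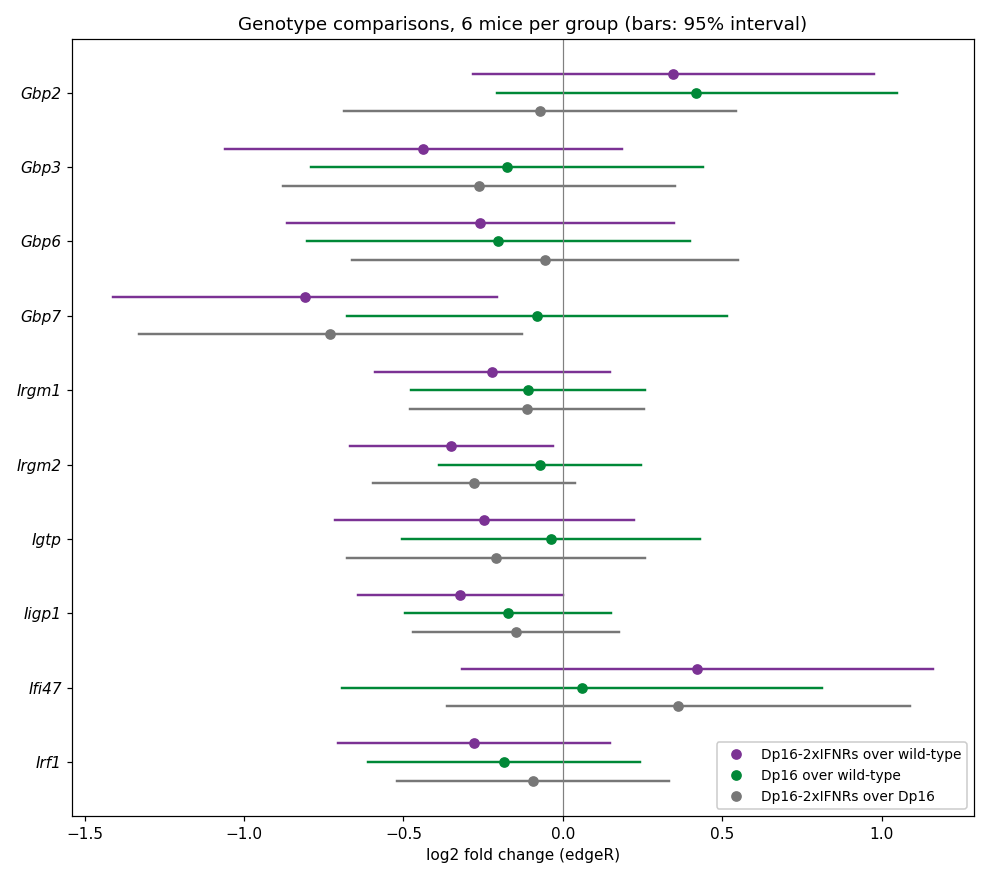
Log2 fold changes of the 10 genes in the 3 genotype comparisons (points, edgeR) with their 95% intervals (bars), 6 mice per group. The intervals of Gbp7 in both comparisons of Dp16-2xIFNRs and of Irgm2 against wild-type lie below 0, and those of Dp16 against wild-type all include 0.

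Between the sexes, 3 of the genes passed. Over all 18 libraries, with genotype as a term, Gbp7, Gbp3 and Igtp passed and were higher in females (3 of 10, beside 3.16% of all genes tested), and none passed as lower (beside 3.41%). Gbp7 measured 6.58, 11.2 and 22.0 CPM in the 9 females, against 2.37, 4.28 and 9.86 CPM in the 9 males (lowest, median and highest library). All 9 females exceeded the mean of the males, and the ranges overlapped. The difference was 2.31-fold (log2 1.21, SE 0.237, adjusted p = 0.00251, edgeR), and it passed without each library in turn (log2 1.10 to 1.38).
Gbp3 measured 5.96, 9.98 and 20.2 CPM in females, against 3.13, 5.04 and 9.61 CPM in males, a 1.93-fold difference (log2 0.95, SE 0.245, adjusted p = 0.0221, edgeR). Its call was lost without wild-type library 5 (adjusted p = 0.0528) or without Dp16 libraries 4 and 5 together (0.0593). Igtp measured 29.2, 38.2 and 50.6 CPM in females, against 15.3, 21.2 and 46.4 CPM in males, a 1.57-fold difference (log2 0.65, SE 0.184, adjusted p = 0.0395, edgeR). The call of Igtp held in 5 of the 18 omissions of 1 library, those of Dp16-2xIFNRs 2, 3 or 6 and of Dp16 2 or 5, and the adjusted p reached 0.0865 without wild-type 5. With the replicate number as a block it was 0.0864.

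The other genes did not pass between the sexes. Gbp6 stood at log2 0.64 (95% interval 0.14 to 1.13) and Irf1 at 0.44 (0.086 to 0.786), both with 9 of 9 females above the male mean, and their adjusted edgeR p values were 0.134 and 0.147. Ifi47 pointed the other way, at -0.80 (-1.42 to -0.179, adjusted p = 0.131), and all 9 females lay below the male mean. Irgm1 (-0.16), Iigp1 (0.18), Irgm2 (0.20) and Gbp2 (0.34) had intervals that included 0. As a group, 8 of the 10 were above 0, with a median of 0.388 beside 0.0213 over all genes. Markers of several other cell types lay mostly above 0 too: 8 of 8 stellate cell markers were (median log2 0.457; summed level 220.2 to 358 CPM in females and 148 to 293 CPM in males), as were 9 of 10 sinusoidal endothelial markers (0.291; 233 to 383 CPM in females and 196 to 309 CPM in males), 6 of 6 B cell markers (0.709) and 5 of 6 cholangiocyte markers (0.414). Also above 0 were 11 of 11 Kupffer cell markers (0.206) and 9 of 13 T and NK cell markers (0.236). The same held for 7 of 10 monocyte and neutrophil markers (0.477) and 5 of 7 dendritic cell markers (0.165). Of all these markers only Fcna, of the Kupffer list, passed singly. The hepatocyte markers split 5 to 5, with Alb higher (log2 0.46, adjusted p = 0.0204, edgeR) and Serpina1a lower (-0.58, adjusted p = 0.0299) in females. The part of these cells in the difference between the sexes was not tested.

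**Figure D3:**
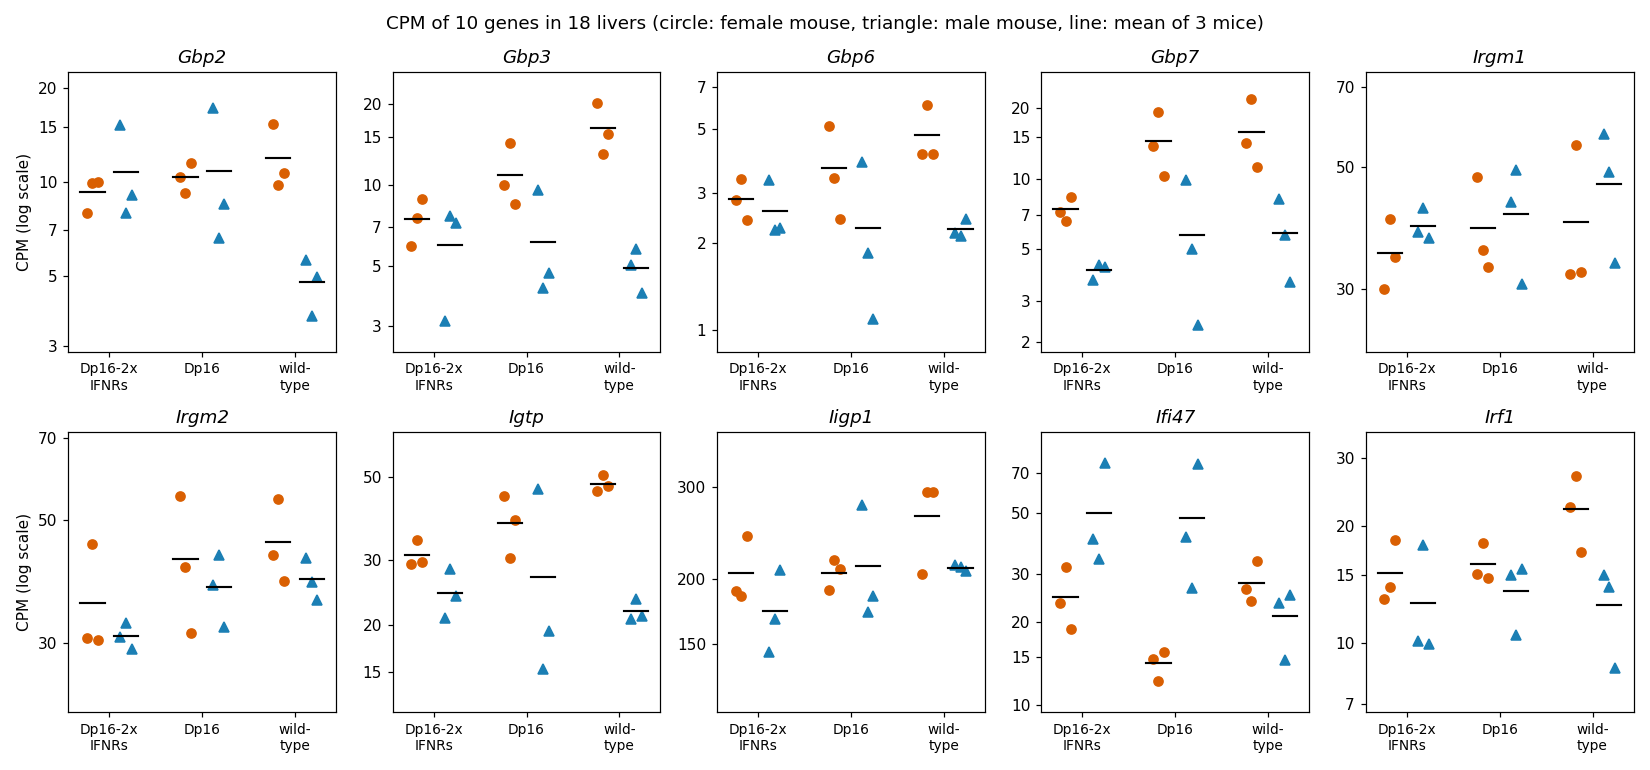
CPM of each of the 10 genes in each of the 18 livers on a log axis, by group and sex (circles are females, triangles are males, lines are means of 3 mice). Wild-type females sit above all wild-type males in Gbp2, Gbp3, Gbp6, Gbp7, Igtp and Irf1, while Dp16 and Dp16-2xIFNRs males lie above all females of their group in Ifi47.

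The sexes were then compared within each group, in comparisons added after the data were seen; the test of the difference between groups follows further on. In wild-type livers every female exceeded every male in 6 of the 10 genes (Gbp2, Gbp3, Gbp6, Gbp7, Igtp and Irf1), beside 7.88% of all genes tested. In Dp16-2xIFNRs livers this held for 2 genes (Gbp7 and Igtp, beside 9.67% of all genes), and in Dp16 livers for 1 gene (Gbp7, beside 9.22%). Ifi47 was the opposite in both, with every female below every male, as in 8.67% of all genes in Dp16-2xIFNRs and 6.81% in Dp16.

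Gbp3 showed the widest gap in wild-type. Its females measured 20.2, 13.0 and 15.5 CPM and its males 5.04, 5.78 and 3.97 CPM there. Females of Dp16-2xIFNRs measured 5.96, 7.52 and 8.89 CPM beside 3.13, 7.66 and 7.24 CPM in males, and females of Dp16 measured 9.98, 14.3 and 8.52 CPM beside 9.61, 4.15 and 4.73 CPM in males. The female levels were thus separate from the male levels in wild-type and overlapped them in both other groups. Within wild-type the difference passed (3.29-fold, log2 1.72, SE 0.373, adjusted p = 0.021, edgeR), as 0.697% of all genes did in that direction. It did not pass without wild-type 1, 2, 3 or 5, with adjusted p values of 0.0913, 0.0609, 0.113 and 0.113.

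Gbp2 measured 15.3, 9.75 and 10.7 CPM in wild-type females, against 5.63, 3.73 and 4.96 CPM in wild-type males. In Dp16-2xIFNRs it measured 7.97, 9.94 and 9.98 CPM in females beside 15.2, 7.95 and 9.06 CPM in males, and in Dp16 10.4, 9.25 and 11.5 CPM in females beside 17.3, 6.64 and 8.53 CPM in males. The low values belong to the 3 wild-type males, and the other groups of mice overlapped. The share of all genes in which wild-type males stand apart in this way was not counted. Within wild-type the log2 difference was 1.32 (SE 0.34, adjusted p = 0.0694, edgeR), and DESeq2 gave an adjusted p of 0.0088. Igtp measured 45.7, 50.6 and 47.2 CPM in wild-type females, against 20.8, 23.6 and 21.2 CPM in wild-type males, with replicates of one sex closely spaced. Its log2 difference there was 1.13 (SE 0.304, adjusted p = 0.0889, edgeR), and DESeq2 gave an adjusted p of 0.0159. Gbp7 stood at 1.43 within wild-type (SE 0.42, adjusted p = 0.138, edgeR) and 1.32 within Dp16 (SE 0.419, adjusted p = 0.124, edgeR), and DESeq2 gave adjusted p values of 0.0239 and 0.0421.

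Ifi47 was lower in females within Dp16, the other difference that passed within a group. Females measured 23.6, 31.8 and 19.0 CPM in Dp16-2xIFNRs, 14.7, 12.2 and 15.6 CPM in Dp16 and 26.5, 23.9 and 33.5 CPM in wild-type. Males measured 40.2, 33.9 and 76.1 CPM in Dp16-2xIFNRs, 41.0, 26.8 and 75.8 CPM in Dp16 and 23.6, 14.6 and 25.1 CPM in wild-type. Dp16 females lay below all wild-type females and all Dp16-2xIFNRs females, while Dp16-2xIFNRs and Dp16 males all lay above all wild-type males. The share of all genes with such gaps between genotypes within a sex was not counted. Gaps are common in groups of this size. Between the sexes, ranges did not overlap in 18.3% of all genes within Dp16-2xIFNRs, 16% within Dp16 and 15.2% within wild-type. Within Dp16 the difference between the sexes passed (0.296-fold in females, log2 -1.76, SE 0.367, adjusted p = 0.0137, edgeR), as 1.18% of all genes did in that direction. It did not pass without Dp16 1, 4 or 5 (adjusted p = 0.0644, 0.0819 and 0.0928) or without Dp16 4 and 5 together (0.293). Within Dp16-2xIFNRs it stood at -1.01 (SE 0.36, adjusted p = 0.321, edgeR), and without male library 5 of that group at -0.58.

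**Figure D4:**
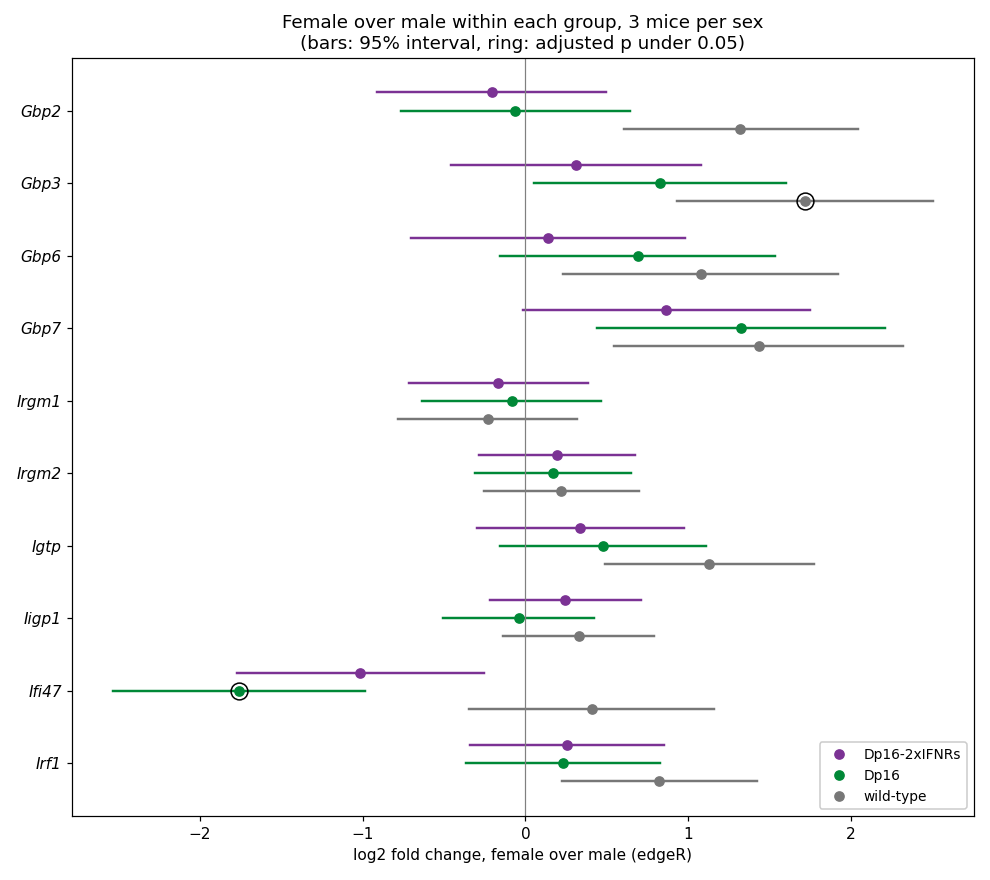
Log2 fold change of females over males within each group (points, edgeR) with 95% intervals (bars), 3 mice per sex; rings mark an adjusted p under 0.05. The rings stand at Gbp3 in wild-type (1.72) and at Ifi47 in Dp16 (-1.76), and the intervals of Irgm1 and Irgm2 include 0 in the 3 groups.

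Whether the effect of a genotype differs between the sexes was tested with an interaction term, given as the log2 effect in females less that in males. No gene of the whole table passed in either comparison in edgeR (0 of 15208, with 2.24% at an unadjusted p of 0.05 for Dp16-2xIFNRs and 7.88% for Dp16; DESeq2 called 10 and 52). The terms of 9 of the 10 genes were negative in both comparisons, with medians of -0.68 for Dp16-2xIFNRs and -0.491 for Dp16, beside 0.0226 and 0.0366 over all genes. Both comparisons share the wild-type mice. For Dp16-2xIFNRs the largest terms were those of Gbp2 (-1.53, SE 0.475), Ifi47 (-1.42, SE 0.507) and Gbp3 (-1.40, SE 0.517), with unadjusted edgeR p values of 0.00501, 0.0121 and 0.0145. For Dp16 they were those of Ifi47 (-2.16, SE 0.51, 95% interval -3.24 to -1.09) and Gbp2 (-1.38, SE 0.474), with unadjusted p values of 0.000541 and 0.00957 and adjusted p values of 0.388 and 0.582. DESeq2 called the term of Ifi47 (adjusted p = 0.0231).

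The ligand, receptor and signal transduction genes of the pathway stood mostly within the spread of the libraries. Ifng, the ligand, was near the limit of detection, with 25 counts in Dp16-2xIFNRs (17 of them in 1 library), 2 in Dp16 and 0 in wild-type over the 6 libraries of each group, and 15 of 18 libraries were at 0. A count of 0 allows up to 3 counts per library, and Ifng was not tested. Of the 17 other genes of the receptor and its signal transduction, none passed in any genotype comparison. Ifngr2, the receptor chain in the cluster, stood at log2 -0.05 (SE 0.187) in Dp16-2xIFNRs and 0.39 (SE 0.187) in Dp16, each against wild-type. Irf8, a factor of myeloid cells, stood at 0.61 (SE 0.228) in Dp16-2xIFNRs and 0.51 (SE 0.228) in Dp16, and Irf2, a repressor at the same elements as Irf1, at -0.50 (SE 0.184) in Dp16-2xIFNRs. In Dp16-2xIFNRs against Dp16 the lowest p values were those of Stat3 (-0.68, SE 0.258) and Ifngr2 (-0.44, SE 0.187). Between the sexes none of the 17 passed either, and Ifngr2 stood at 0.39 (SE 0.153, adjusted p = 0.16, edgeR) and Ptpn6, a phosphatase of leukocytes, at 0.25 (SE 0.121). In the interaction for Dp16-2xIFNRs the lowest p values were those of Irf2 (0.69, SE 0.336) and Socs3 (-1.45, SE 0.773), and for Dp16 those of Stat2 (1.19, SE 0.47) and Ifngr1 (-0.73, SE 0.292).

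Of the 19 other genes of the GTPase family, 17 were tested and none passed in a genotype comparison. Their median log2 fold change was -0.0555 in Dp16-2xIFNRs and 0.147 in Dp16 against wild-type. Gm4841 passed between the sexes and was lower in females (0.286 ± 0.102 CPM in females and 1.10 ± 0.994 CPM in males, SD, n = 9 each; log2 -1.64, adjusted p = 0.0363, edgeR). The lowest p against wild-type was that of Gm12185, at 0.332 ± 0.220 CPM in Dp16-2xIFNRs, 0.368 ± 0.192 CPM in Dp16 and 0.0344 ± 0.0843 CPM in wild-type livers (SD, n = 6 each), with a wild-type median of 0. Its log2 fold changes were 3.42 (SE 1.22, adjusted p = 0.446, edgeR) in Dp16-2xIFNRs and 3.49 (SE 1.2, adjusted p = 0.655) in Dp16. Next were Gbp2b, at -0.86 (SE 0.407) in Dp16-2xIFNRs, and Gm4841, at 1.35 (SE 0.559) in Dp16. In Dp16-2xIFNRs against Dp16 they were F830016B08Rik (-1.51, SE 0.68) and Irgq (-0.70, SE 0.339). In the interaction, Gbp2b stood at -2.14 (SE 0.648) for Dp16-2xIFNRs and Gm12250 at -2.48 (SE 0.666) for Dp16. Tgtp1, another GTPase of the family, stood at -2.91 (SE 0.754) for Dp16-2xIFNRs and -3.16 (SE 0.756) for Dp16. None of these terms passed. Tgtp1 averaged 2.72 ± 1.35 CPM in Dp16-2xIFNRs, 2.03 ± 0.373 CPM in Dp16 and 3.34 ± 0.882 CPM in wild-type females. In males it averaged 5.39 ± 2.37 CPM in Dp16-2xIFNRs, 4.80 ± 3.47 CPM in Dp16 and 0.878 ± 0.453 CPM in wild-type (SD, n = 3 each), so wild-type males had the lowest mean.

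Other genes that interferon gamma induces were read from a list. Of 24 tested, none passed in a genotype comparison, and the median log2 fold changes were 0.0766 in Dp16-2xIFNRs and -0.0528 in Dp16 against wild-type. Cxcl9, a chemokine for T cells, had the lowest p in both, at 0.95 (SE 0.37, adjusted p = 0.498, edgeR) in Dp16-2xIFNRs and 1.07 (SE 0.371, adjusted p = 0.683) in Dp16. Its mean was 40.0 ± 13.0 CPM in Dp16-2xIFNRs, 43.3 ± 27.0 CPM in Dp16 and 20.4 ± 10.5 CPM in wild-type livers (SD, n = 6 each), and the ranges overlapped. Next were Tap1, a peptide transporter, at -0.38 (SE 0.169) in Dp16-2xIFNRs and Ciita, the activator of MHC class II genes, at 0.74 (SE 0.364) in Dp16. In Dp16-2xIFNRs against Dp16 they were Nlrc5 (-1.22, SE 0.539) and Tap1 (-0.28, SE 0.169). The interaction terms were negative for 21 of 24 in Dp16-2xIFNRs and 17 of 24 in Dp16, with medians of -0.618 and -0.655 and none passing. Cxcl10, a related chemokine, stood at -2.18 (SE 0.475, adjusted p = 0.622, edgeR) for Dp16-2xIFNRs and -2.07 (SE 0.476, adjusted p = 0.388) for Dp16. It averaged 2.65 ± 0.426 CPM in Dp16-2xIFNRs females, 1.96 ± 0.385 CPM in Dp16 females and 3.75 ± 0.741 CPM in wild-type females. Its male averages were 4.36 ± 1.25 CPM in Dp16-2xIFNRs, 2.97 ± 0.919 CPM in Dp16 and 1.36 ± 0.315 CPM in wild-type (SD, n = 3 each). Cxcl9 stood at -1.80 (SE 0.557) for Dp16-2xIFNRs and H2-Ab1, an MHC class II gene, at -2.03 (SE 0.565) for Dp16. Between the sexes, Icam1, an adhesion molecule (log2 0.48, adjusted p = 0.0405, edgeR), and Tapbp, which helps to load MHC class I (0.43, adjusted p = 0.0408), passed and were higher in females.

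The autophagy genes that conjugate LC3 and GABARAP, which place the GTPases on vacuoles, held no call in a genotype comparison (11 tested). The lowest p values were those of Atg7 (-0.37, SE 0.193) and Gabarap (0.25, SE 0.227) in Dp16-2xIFNRs and of Gabarapl1 (-0.25, SE 0.188) and Atg5 (-0.36, SE 0.276) in Dp16, each against wild-type, and of Atg3 (0.29, SE 0.141) and Gabarap (0.36, SE 0.227) in Dp16-2xIFNRs against Dp16. In the interaction they were those of Atg7 (0.53, SE 0.365) and Atg5 (-0.51, SE 0.52) for Dp16-2xIFNRs and of Atg5 (-1.02, SE 0.521) and Gabarap (-0.83, SE 0.428) for Dp16. Map1lc3a passed between the sexes and was lower in females (log2 -0.60, SE 0.159, adjusted p = 0.0251, edgeR). Inflammasome genes, which guanylate-binding proteins help to activate, held no call in any comparison (9 tested). The lowest p values were those of Pycard (0.64, SE 0.452) and Il1b (0.68, SE 0.484) in Dp16-2xIFNRs and of Il18 (-0.30, SE 0.255) and Gsdmd (-0.16, SE 0.138) in Dp16, each against wild-type, and of Il1b (0.71, SE 0.485) and Pycard (0.66, SE 0.455) in Dp16-2xIFNRs against Dp16. Between the sexes they were those of Gsdmd (0.25, SE 0.112) and Naip5 (1.09, SE 0.638). In the interaction they were those of Nlrp3 (-2.45, SE 1.57) and Pycard (-0.97, SE 0.801) for Dp16-2xIFNRs and of Pycard (-2.13, SE 0.811) and Aim2 (-3.10, SE 1.34) for Dp16. Of 25 genes induced by type I interferon, none passed in a genotype comparison, and Oasl2 (log2 0.90, adjusted p = 0.00104, edgeR) and Ifi44 (0.74, adjusted p = 0.0403), both antiviral, were higher in females. The lowest p values against wild-type were those of Ifih1, an RNA sensor (-0.62, SE 0.159, adjusted p = 0.183), and Oas2 (-2.01, SE 0.734) in Dp16-2xIFNRs and of Rtp4 (-0.43, SE 0.165) and Dhx58 (-0.41, SE 0.223) in Dp16. In Dp16-2xIFNRs against Dp16 they were those of Ifih1 (-0.46, SE 0.159) and Oasl2 (-0.51, SE 0.196). In the interaction they were those of Zbp1 (-1.46, SE 0.488) and Ifi44 (-1.05, SE 0.47) for Dp16-2xIFNRs and of Zbp1 (-1.61, SE 0.488) and Oas2 (3.04, SE 1.29) for Dp16.

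Markers of immune cells were read in the same mice. The summed level of 11 Kupffer cell markers ran from 498 to 573 CPM in Dp16-2xIFNRs, 420 to 559 CPM in Dp16 and 623 to 866 CPM in wild-type females. In males it ran from 450 to 548 CPM in Dp16-2xIFNRs, 446 to 612 CPM in Dp16 and 425 to 483 CPM in wild-type. The interaction terms of these markers were negative for 11 of 11 in Dp16-2xIFNRs and 10 of 11 in Dp16, and none passed. Their medians were -0.592 and -0.908, beside 0.0226 and 0.0366 over all genes. The other immune cell lists leaned the same way, and none of their terms passed. Of the 13 T and NK cell markers tested, 11 were negative for each genotype, with medians of -1.41 in Dp16-2xIFNRs and -1.91 in Dp16. Negative terms were held by 5 and 6 of 6 B cell markers, 7 and 8 of 10 monocyte and neutrophil markers, and 6 of 7 dendritic cell markers in both. The summed level of 14 T and NK cell markers in wild-type was 7.86 to 19.9 CPM in females and 5.48 to 7.77 CPM in males. In Dp16-2xIFNRs it was 13.3 to 14.7 CPM in females and 15.3 to 18.7 CPM in males, and in Dp16 6.55 to 13.9 CPM in females and 7.40 to 22.0 CPM in males. Of these defining markers, Cd3e and Nkg7 were detected in every library, while Prf1 and Ncr1 were at 0 in 5 of 18. B cell markers summed to 16.5 to 56.9 CPM in Dp16-2xIFNRs, 6.99 to 37.1 CPM in Dp16 and 3.39 to 22.7 CPM in wild-type. Monocyte and neutrophil markers summed to 81.4 to 163 CPM in Dp16-2xIFNRs, 54.9 to 244 CPM in Dp16 and 39.8 to 109 CPM in wild-type. Each of these 2 sums rests mostly on 1 gene. Jchain averaged 14.3 CPM over all libraries, and no other B cell marker averaged more than 1.44 CPM (Cd22). Lyz2 averaged 88.8 CPM, and no other monocyte and neutrophil marker averaged more than 3.61 CPM (S100a9). The Kupffer marker Fcna, a ficolin, was lower in Dp16-2xIFNRs than in wild-type (log2 -0.84, adjusted p = 0.00803, edgeR), the only 1 of the 11 that passed there. In Dp16 against wild-type it stood at -0.69 (adjusted p = 0.0589, edgeR), and in Dp16-2xIFNRs against Dp16 at -0.15 (SE 0.126). Fcna was also higher in females (0.46, adjusted p = 0.00824, edgeR). The part of these cells in the levels of the GTPases was not tested.

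The genes were also compared with each other from mouse to mouse, as deviations of log2 CPM from the mean of each group and sex over the 18 libraries. Of the 45 pairs, 34 had a positive Pearson r, and the median was 0.194. Irgm1 and Irgm2 were the closest pair and the only one that passed (r = 0.815, exact permutation p = 0.000107, adjusted over 45 pairs 0.00482; Spearman rho = 0.841, exact permutation p = 0.000171, adjusted 0.00772; two-sided, over 46656 arrangements within group and sex). Without the 2 libraries farthest from the median of Irgm1 the r was 0.831. Some other pairs changed more when the 2 libraries farthest from the median of the first gene were left out. Gbp6 with Gbp7 went from 0.642 to 0.173 and Gbp6 with Igtp from 0.604 to 0.174. Gbp6 with Irgm2 rose from 0.609 to 0.745. Male Dp16 library 2 lay far above the mean of its group and sex in Gbp6 (log2 0.933), Gbp7 (1.00) and Igtp (0.954) at once, but not in Irgm2 (0.0258). Igtp and Irgm2, which share exon bases, had an r of 0.152 (exact permutation p = 0.607, adjusted 0.889; rho 0.325). Ifi47 had a negative r with 6 of its 9 partners, the lowest being -0.473 with Gbp7 (exact permutation p = 0.203, adjusted 0.601; rho -0.486).

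**Figure D5:**
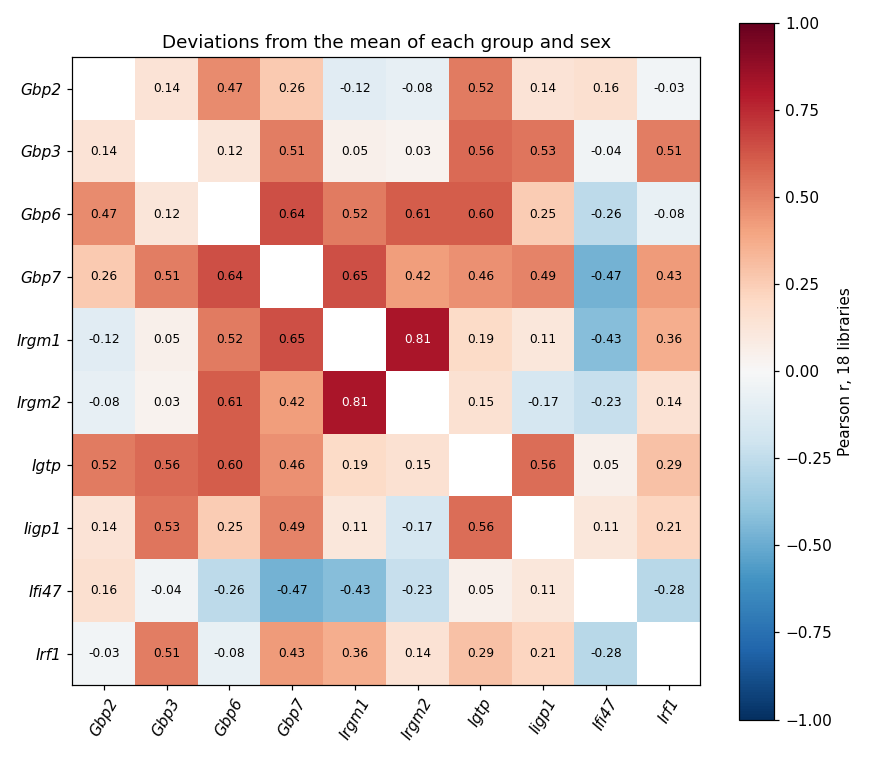
Pearson r of each pair of the 10 genes over 18 libraries, after the mean of each group and sex was subtracted (red is positive, blue is negative, and the number in each square is r). Irgm1 with Irgm2 is the highest square at 0.815, and the column of Ifi47 holds 6 negative values.

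Outside the 10 genes, 7 of those most like the mean of the 9 GTPases in these deviations, of 15198 compared over 18 libraries, were Igf2bp2 (Pearson r 0.909), Trim30c (0.83), Rhobtb2 (0.829), Gm43597 (0.808), Lrrc8c (0.798), Ppp1r15a (0.794) and Gbp9 (0.793). They are given as a description, since the highest values were picked from many and the libraries share depth and scaling. Among the GTPases themselves, the r with that mean, which each gene is part of, ran from 0.809 in Igtp and 0.781 in Gbp7 down to 0.492 in Gbp2 and -0.0204 in Ifi47. Irf1, which is not part of it, had 0.308.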

How the data were processed

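Per the labels, total liver RNA was extracted with TRIzol, enriched for poly-A RNA, made into strand-specific libraries with a Tecan/Nugen kit and sequenced as read pairs on a NovaSeq instrument. HISAT2 2.1.0, SAMtools 1.5, HTSeq 0.6.1, FastQC 0.11.5, bcl2fastq and the GRCm38 build are named in the submitters' processing notes. The authors deposited whole-number counts per gene, which were not normalised, and RPKM values per gene. The deposited RPKM values served for levels between genes and for an alternative test on log2(RPKM + 0.1) or log2(RPKM + 1). Counts were fitted with the edgeR 4.0.16 quasi-likelihood test in R 4.3.3, using TMM factors, its expression filter by group, robust estimates and group and sex as terms, over all 18 libraries in 1 fit. Interactions of group and sex used a second fit. P-values were adjusted over 15208 genes by Benjamini-Hochberg with a threshold of 0.05. Log2 CPM used a prior count of 2. Each edgeR SE was the absolute log2 fold change divided by the square root of the F statistic of its test. The 95% intervals were built from this SE with the t distribution. DESeq2 1.42.0, limma 3.58.1, other filters, blocks and left-out libraries were alternatives. The comparison of Dp16 with wild-type was tested on simulated data, and the other comparisons, the sex term and the interactions were not. Pairs were tested by exact permutation (Python 3.11.15, scipy 1.17.1). Promoter windows came from RefSeq. Groups and sex came from the labels. The 10 genes and all lists were chosen with earlier results of these data known. Named were all 10 genes; from each functional list the genes called or, with none called, the 2 of lowest p in each genotype, sex and interaction comparison; from the cell marker lists the genes called and a few defining ones, beside summed levels; and the 8 genes most like the GTPase mean, of which 1 is not reported here. Ifngr2 is given in every genotype comparison.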

Additional observations from a re-analysis of the deposited data

Results flagged for a closer look

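Among the 30 combinations of gene and group examined for a library far from the others, 2 stood out, and chance does so for about 1 in 20 groups. Gbp2 in the male Dp16-2xIFNRs library 1 was at 3.93 on the log2 CPM scale (15.2 CPM), while the other 5 libraries of that group ran from 7.95 to 9.98 CPM. Its gap to the next library was 0.65 of the range of the group, beside a critical value of 0.625. Irgm2 in the female Dp16-2xIFNRs library 4 was at 5.50 on the log2 CPM scale (45.3 CPM), while the others ran from 29.4 to 32.6 CPM, with a gap of 0.758 of the range.

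In 3 cases every male of a genotype lay above, and every female below, the wild-type mean of its sex. Gbp2 did so in Dp16-2xIFNRs, with an interaction term of -1.53 on the log2 scale, and in Dp16, with a term of -1.38. Ifi47 did so in Dp16, with a term of -2.16. The pattern was found in 1.96% of all genes for Dp16-2xIFNRs and 2.83% for Dp16. The interaction test of edgeR gave adjusted p values of 1 for Gbp2 in Dp16-2xIFNRs, 0.582 for Gbp2 in Dp16 and 0.388 for Ifi47 in Dp16. Both genotypes were set against the same 6 wild-type mice.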

How the results depend on the processing

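The calls of Gbp7, Gbp3 and Igtp between the sexes and their losses are given above; in other settings than left-out libraries, Igtp was also lost with a random block for mice that share a description number (adjusted p = 0.0731). Calls were gained between the sexes by Irf1 without Dp16-2xIFNRs 3 (adjusted p = 0.0472) and Gbp6 without Dp16 2 (0.0447). Within wild-type they were gained with no filter by Gbp2 (0.0383) and Igtp (0.0452), without Dp16 2 or 3 by Gbp2 (0.0226 and 0.035) and Igtp (0.00346 and 0.0264), and by Gbp7 without Dp16 4 (0.0414) or 4 and 5 (0.0381). Within Dp16 they were gained without Dp16 2 by Gbp7 (0.0248) and Igtp (0.0128). None of the 10 genes was called in a genotype comparison under any setting run. Of 900 values under other settings, 866 kept direction and call, and of 1620 with 1 library left out, 1534 did. The cause of the changes was not tested.

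Genes called over the whole table for Dp16-2xIFNRs against wild-type numbered 127 by DESeq2, 7 without the sex term, 23 with the start of the description number as a term, 66 with the random block, 43 with the compared groups alone, 0 in males alone and in females alone, 38 and 27 by limma on log2(RPKM + 0.1) and log2(RPKM + 1), 64 without Dp16 libraries 4 and 5, and 4 to 48 with 1 library left out. For Dp16 against wild-type they were 72 by DESeq2, 11 by limma-voom, 3 without the sex term, 15 with the random block, 1 with the compared groups alone, 0 in either sex alone, 11 by limma on either RPKM scale, 2 on log2(RPKM + 0.1) with no filter, 1 without Dp16 4 and 5, and 1 to 9 with 1 left out. For Dp16-2xIFNRs against Dp16, DESeq2 called 7 and the random block 1; between the sexes DESeq2 called 1535. The interactions held 10 (Dp16-2xIFNRs) and 52 (Dp16) by DESeq2, 1 each by limma-voom and with no filter, and 0 to 1 for Dp16 with 1 left out.

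Signs turned (log2) for Dp16-2xIFNRs against wild-type in males alone, with Gbp3 0.29, Gbp6 0.22, Igtp 0.17, Irf1 0.0192 and a median of 0.0931, and in females alone, with Gbp2 -0.37 and Ifi47 -0.18. For Dp16 against wild-type they turned in males alone (Gbp3 0.34, Gbp6 0.0252, Igtp 0.32, Iigp1 0.0215, Irf1 0.13), in females alone (Gbp2 -0.21, Ifi47 -0.98), and without Dp16 4 and 5 (Irgm1 0.00896, Igtp 0.13, Ifi47 -0.14). For Dp16-2xIFNRs against Dp16, Gbp6 was 0.19 in males alone and Irf1 0.00628 without Dp16 4 and 5. By limma-voom the Dp16 interaction of Gbp7 was 0.0285 and Gbp2 within Dp16 0.0462; Iigp1 within Dp16 was 0.0037 with no filter.

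With 1 library left out, values crossed 0 for Dp16 against wild-type in Gbp7 (-0.30 to 0.0873), Ifi47 (-0.26 to 0.24), Gbp3 (-0.37 to 0.00561), Igtp (-0.31 to 0.0699), Irgm1 (-0.19 to 0.0113) and Irgm2 (-0.17 to 0.00938). For Dp16-2xIFNRs against Dp16 they did in Gbp2 (-0.30 to 0.22), Gbp6 (-0.21 to 0.19) and Igtp (-0.33 to 0.0915). The Dp16-2xIFNRs interaction did in Irgm1 (-0.11 to 0.38), Irgm2 (-0.24 to 0.13) and Iigp1 (-0.24 to 0.0694), and the Dp16 interaction in Irgm1 (-0.0338 to 0.46), Gbp7 (-0.48 to 0.53), Irgm2 (-0.28 to 0.13) and Gbp6 (-0.71 to 0.23). Females against males did within Dp16-2xIFNRs in Gbp2 (-0.38 to 0.13) and Irgm2 (-0.0178 to 0.30), and within Dp16 in Irgm2 (-0.0586 to 0.35), Iigp1 (-0.16 to 0.20), Gbp2 (-0.31 to 0.46) and Irgm1 (-0.26 to 0.0743).

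With the replicate number as a replicate block, Ifi47 in Dp16 against wild-type was -0.000629 and Igtp between the sexes lost its call (0.69, adjusted p = 0.0864, edgeR). Libraries with the same number mostly differ in sex, their deviations correlated from -0.449 to 0.342, and 5 of 18 correlated best with their own number, so the numbers were not taken as pairs.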
